A study of Mus musculus with 2 samples.

Results

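The Ccr2 MHC-II macrophages described here were 593 of the 5263 heart CD45+ cells kept from 5 groups of mice, or 11.3% of them. They were chosen by 11 values read from each cell. In reads scaled to a total of 1000000 per cell (CPM), a member had at least 300 CPM of Csf1r and 2000 of Lyz2, which mark monocytes and macrophages, at least 1500 of Ccr2, the chemokine receptor that brings monocytes out of bone marrow and into tissue, and at least 3000 of H2-Ab1, a chain of MHC class II. It also had less than 1000 CPM of Ly6c2, 500 of Spp1, 200 of Gpnmb, 2000 of Retnla, 100 of Cd209a, 50 of Mki67 and 200 of Cd79a, which set apart inflammatory monocytes, Spp1 and lipid-laden macrophages, a Retnla-rich state, dendritic cells, dividing cells and B cells. These genes are therefore no finding about the cells, and because the cells were selected on their own counts, no test was made on them.

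CD45+ leukocytes came from hearts of male mice, 8 weeks old and labelled C57BL/6N (for CD3e-/- mice, the study's methods give a C57BL/6 background), 1 week after transverse aortic constriction (TAC, a pressure overload of the left ventricle) or sham surgery. The groups were WT sham, CD3e-/- sham, WT TAC, CD3e-/- TAC and WT TAC with an antibody to CD8, and CD3e-/- mice lack T cells throughout the body from birth. Hearts were digested with collagenase II and DNase I, freed of cardiomyocytes and dead cells on Percoll and sorted for CD45 on magnetic beads, and all groups were tagged with hashtags and sequenced in 1 pooled TAS-Seq library on BD Rhapsody. Each group was 1 hashtag, so it counts as 1 sample, and how many mice stood behind a hashtag is not given in the sources used here. Intervals below cover counting error at 95%, and since reads rather than molecules were counted, those on levels are too narrow.

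Macrophages with Ccr2 and MHC class II arise in the heart mainly from blood monocytes and are renewed by them, while resident macrophages without Ccr2 are largely kept up by local division. MHC class II carries peptides from engulfed proteins to the cell surface, where CD4+ T cells read them, and its genes share the transactivator Ciita. Interferons act on the same cells, in part through Irf7, and switch on a broad set of antiviral genes.

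T cell genes followed the labels of the CD3e-/- groups in the kept cells without Csf1r and Lyz2. There the level of Cd3e was 35.8 CPM in the WT sham group, 25 in the WT TAC group and 35.4 in the CD8 antibody group, against 1.72 in CD3e-/- sham and 3.06 in CD3e-/- TAC. A read of Cd8a or Cd8b1 was found in 1.01% (0.461 to 1.90%) of the kept cells of the antibody group and in 1.18% (0.710 to 1.83%) of those of WT TAC. It was 1% in WT sham, 0.24% in CD3e-/- sham and 0.435% in CD3e-/- TAC. The antibody group thus did not have detectably fewer cells with these reads than WT TAC, and the group, labelled CD8-depleted, is named here by its antibody as anti-CD8 TAC. With 9 such cells in the antibody group and 19 in WT TAC, the reads cannot tell how far CD8+ T cells were depleted. The study also counted CD4+ and CD8+ T cells of the heart by flow cytometry, which was not analysed here. The members held medians of 77033 reads and 3530 genes per cell in WT sham, 78926 reads in CD3e-/- sham, 99901 in WT TAC, 120530 in CD3e-/- TAC and 126626 reads and 4485 genes in anti-CD8 TAC. Depth was thus higher in the TAC groups, and shares of cells with a read are given after each cell was thinned to 30000 reads, which left out 5, 2, 7, 2 and 1 cells of the groups in that order.

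The promoters of 4 genes are shown first, a pair from each programme described below. These programmes are antigen presentation, which the cells share, and the interferon response, in which the groups differed. Sequences are the 180 bases before the start of the gene in RefSeq on GRCm38.p6, 5′ to 3′ on the strand of the gene, for H2-Aa (chr17:34287824-34288003, minus strand), H2-Eb1 (chr17:34305687-34305866, plus strand), Isg15 (chr4:156200819-156200998, minus strand) and Ifit3 (chr19:34583349-34583528, plus strand). Capitals mark matches to the CCAAT box (CCAAT, or ATTGG on the other strand) in the first pair and to the core of the interferon-stimulated response element (TTTCNNTTTC, or GAAANNGAAA) in the second pair.
H2-Aa: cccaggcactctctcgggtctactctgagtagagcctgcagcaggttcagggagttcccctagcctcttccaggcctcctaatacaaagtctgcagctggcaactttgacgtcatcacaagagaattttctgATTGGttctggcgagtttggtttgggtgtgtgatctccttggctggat
H2-Eb1: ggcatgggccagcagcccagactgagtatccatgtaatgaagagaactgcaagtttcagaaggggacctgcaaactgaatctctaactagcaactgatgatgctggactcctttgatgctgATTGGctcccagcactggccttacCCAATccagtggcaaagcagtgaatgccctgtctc
Isg15: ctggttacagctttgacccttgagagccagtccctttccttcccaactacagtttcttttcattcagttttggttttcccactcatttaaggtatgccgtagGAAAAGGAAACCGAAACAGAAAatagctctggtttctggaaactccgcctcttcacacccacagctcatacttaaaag
Ifit3: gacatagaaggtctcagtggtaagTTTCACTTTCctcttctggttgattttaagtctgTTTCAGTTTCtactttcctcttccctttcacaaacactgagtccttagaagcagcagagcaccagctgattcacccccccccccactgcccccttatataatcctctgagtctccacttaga

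In H2-Aa the match began 48 bases before the start, and in H2-Eb1 matches began 59 and 35 bases before it. In Isg15, 3 overlapping matches began 78, 72 and 66 bases before the start, and in Ifit3 matches began at 156 and 122. Within 250 bases upstream, a CCAAT box stood in the promoters of 9 of 11 MHC class II presentation genes found in the table, out of 16 in the list, against 37.5% of all 27025 genes. The response element core stood in 10 of 17 type I interferon genes found, out of 25, against 3.46% of all genes. Counted by promoters, the shares were 75% against 33.8% of all 32851 for the CCAAT box and 55.6% against 2.98% for the response element core. A match of letters is a description and not a site of binding, and H2-Ab1, Ciita, Zbp1 and Ly6a were not matched in the table.

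The name of the cells held up in part. They carried the macrophage genes Adgre1 (F4/80), with 309 to 483 CPM over the groups, Cx3cr1, with 688 to 944, Cd68, with 500 to 630, and C1qa, a subunit of complement C1q, with 2042 to 2665. Fcgr1, the receptor CD64 that separates macrophages from dendritic cells, was read in 45.3 to 77.9% of thinned cells by group and in 0.89% of B cells. Over all members it was read in 66.7%, against 62.8% of the other cells with Csf1r and Lyz2. Mertk, also on the macrophage list, was read in 19.1% against 25.3%. The dendritic cell genes Flt3 (4.07 to 13.4 CPM) and Zbtb46 (0.207 to 6.48 CPM) were close to 0 in all 5 groups. Batf3, a dendritic cell factor that macrophages can carry, was above that, with 67.8 to 158 CPM. Of the 18 genes on the dendritic cell list, 5 were read in at least 20% of members before thinning. Thinned, Batf3 was read in 45.5% of members, Irf8 in 66.3%, Itgax in 28.1%, H2-DMb2 in 34.2% and Irf4 in 16.3%. The shares of the other cells with Csf1r and Lyz2 were 31.4, 63.4, 20.2, 24.5 and 13.4% in that order. The summed list had 547 CPM in the median member and 438 in the median other cell. The words "without Spp1" hold as a limit and not as absence: 213 of the 593 cells had no read of Spp1, the median was 10.2 CPM, and the highest value was 483. Thinned, Spp1 was read in 26.7 to 48.7% of the cells by group and in 24% of B cells, which should lack it.

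Genes of other cells were low and spread over the groups. Of the 10 B cell genes, Ighm passed the filter on low values, at 221 to 427 CPM, and Cd79a and Igkc were at 0. The summed level of 15 T and NK cell genes was 26.6 to 89.6 CPM, with the median cell at 0 in each group, that of 9 neutrophil genes 59.5 to 89.1 CPM, that of 10 cardiomyocyte genes 29.3 to 79.7 CPM, that of 8 fibroblast genes 2.41 to 15.8, that of 8 endothelial genes 6.48 to 29.3 and that of 4 erythroid genes at most 0.0690 CPM.

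Of the 4 marker genes that go with the name beside Ccr2, none was in every cell. Clec4b1 is a C-type lectin receptor of myeloid cells. Its level was 198 CPM (187 to 209) in WT sham, 207 (198 to 217) in CD3e-/- sham, 184 (179 to 189) in WT TAC, 153 (147 to 159) in CD3e-/- TAC and 194 (187 to 202) in anti-CD8 TAC. Thinned, 37.2 to 52.5% of the cells by group had a read of Clec4b1, against 23.5% of the other macrophages and monocytes and 2.67% of B cells. Clec4b1 was thus the steadiest of the markers, its lowest and highest groups standing less than 1.5 times apart.

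Sirpb1a, an activating receptor of the signal regulatory protein family, went the other way, with 61.2 CPM (55.4 to 67.4) in WT sham, 69.8 in CD3e-/- sham, 118 in WT TAC, 149 in CD3e-/- TAC and 158 (151 to 164) in anti-CD8 TAC. The sham groups were lower than each TAC group, and the share of thinned cells with a Sirpb1a read was 43.3, 44.2, 56.9, 75.2 and 75.2% in that order. Its near copy Sirpb1c had the same order of sham and TAC groups, with 135, 200, 270, 426 and 366 CPM. Sirpb1a, Sirpb1c and the related gene models Gm9733 and Gm5150 lie side by side on chromosome 3 (GRCm38, from 15295063 to 16006371), so the way reads were divided between these copies is uncertain. Dpep2, a membrane dipeptidase that trims leukotriene D4, had 102, 124, 181, 221 and 158 CPM, again with sham below TAC. Rnd3, an atypical small GTPase that loosens actin fibres, had 102, 96.1, 79.4, 63.2 and 78.9 CPM, with both sham groups highest, though the share of thinned cells with a Rnd3 read was 31.3, 30.2, 31.6, 38.9 and 44.6%, an order that the level did not have.

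Counted together in thinned cells, 30.4% (26.6 to 34.3%) of the cells carried 3 or 4 of Clec4b1, Sirpb1a, Rnd3 and Dpep2. The share was 20.9% in WT sham, 19.8% in CD3e-/- sham, 27.3% in WT TAC, 40.7% in CD3e-/- TAC and 40.6% in anti-CD8 TAC. Of the other cells with Csf1r and Lyz2, 12.3% (11.1 to 13.7%) did so, and of B cells 1.19%. Among cells that missed 1 limit alone, the share was 36.6% (22.1 to 53.1%) for Spp1, 24.1% (15.1 to 35.0%) for Ly6c2 and 4.35% (2.86 to 6.31%) for Ccr2. The 4 markers together were thus not particular to the members, and most members carried fewer than 3.

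The share of the population was lowest in WT sham and highest in WT TAC. Of all kept cells, members were 72 of 1000 in WT sham (7.2%, 5.68 to 8.98%), 88 of 835 in CD3e-/- sham (10.5%, 8.54 to 12.8%), 216 of 1615 in WT TAC (13.4%, 11.8 to 15.1%), 115 of 919 in CD3e-/- TAC (12.5%, 10.4 to 14.8%) and 102 of 894 in anti-CD8 TAC (11.4%, 9.40 to 13.7%). WT sham stood lowest and the 3 TAC groups overlapped in their intervals. A share does not tell whether cells were gained or other cells lost, because numbers of cells per heart were not part of the matrix. WT TAC exceeded WT sham by 6.17 percentage points (3.81 to 8.44), and CD3e-/- sham exceeded WT sham by 3.34 points (0.738 to 6.03). With limits 1.5 times stricter, the latter difference was 1.01 points (-0.988 to 3.10). The difference of CD3e-/- TAC from CD3e-/- sham was 1.97 points (-1.04 to 4.96), that of CD3e-/- TAC from WT TAC was -0.861 points (-3.51 to 1.92) and that of anti-CD8 TAC from WT TAC was -1.97 points (-4.56 to 0.781). These 3 intervals hold 0 with the limits as set, and each left out 0 with stricter or looser limits. With 1 sample a group the spread between mice is unknown for all of these differences.

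**Figure D1:**
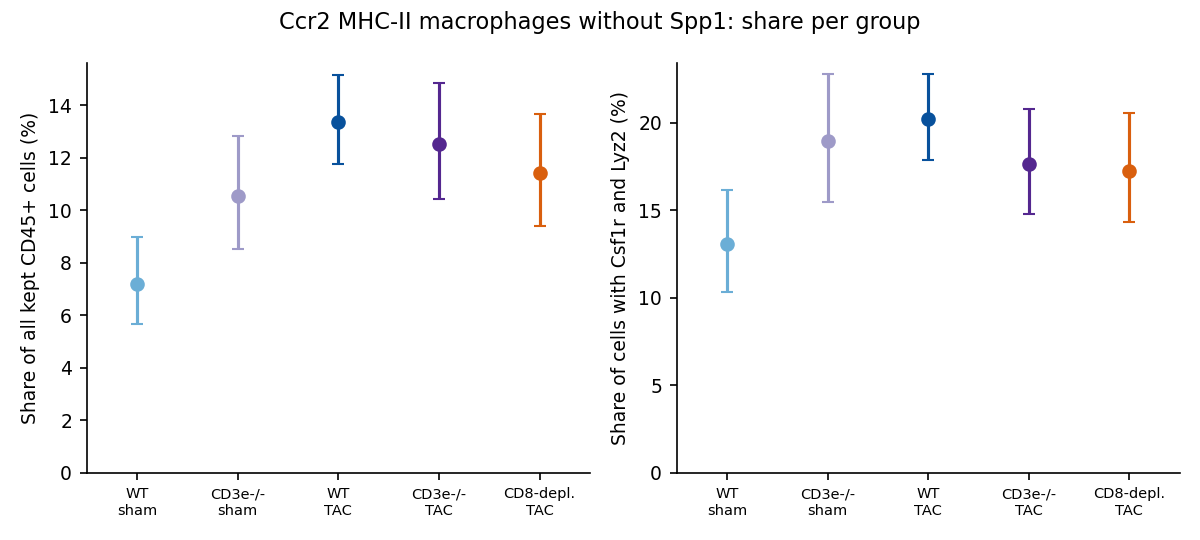
Share of Ccr2 MHC-II macrophages per group, as a percentage of all kept CD45+ cells (left) and of the cells with Csf1r and Lyz2 at their limits (right). Points are the 5 groups and bars exact 95% intervals of counting error; WT sham is lowest on both sides, at 7.2% and 13%.

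Among cells that met the Csf1r and Lyz2 limits, which number 552, 465, 1068, 652 and 591, members were 13% in WT sham, 18.9% in CD3e-/- sham, 20.2% in WT TAC, 17.6% in CD3e-/- TAC and 17.3% in anti-CD8 TAC. By this denominator CD3e-/- TAC was 1.29 points below CD3e-/- sham (difference -1.29, -5.98 to 3.25), where it was above it among all kept cells. Cells with Csf1r and Lyz2 made up 55.2 and 55.7% of kept cells in the sham groups and 66.1 to 70.9% in the TAC groups.

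Which limit held cells out differed between the groups more than the final share did. Of the cells that met the other 10 criteria, the Ccr2 limit passed 28.7% (23.2 to 34.7%) in WT sham and 34.2% (28.5 to 40.4%) in CD3e-/- sham, against 61.5% (56.2 to 66.7%), 60.8% (53.5 to 67.8%) and 58.0% (50.3 to 65.3%) in WT TAC, CD3e-/- TAC and anti-CD8 TAC. The H2-Ab1 limit passed 83.7 and 83.0% in the sham groups and 65.9, 69.7 and 69.9% in the TAC groups. Cells with MHC class II but Ccr2 under its limit outnumbered cells with Ccr2 but little H2-Ab1 in every group. The former numbered 179 and 169 in WT and CD3e-/- sham, and 135, 74 and 74 in WT TAC, CD3e-/- TAC and anti-CD8 TAC. The latter numbered 14, 18, 112, 50 and 44 in the same order, and were more frequent after TAC.

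The Ly6c2 limit, a part of the rule, passed different shares in the TAC groups, as a description of 1 sample each. It passed 94.7% (91.0 to 97.3%) in WT TAC, 71.9% (64.2 to 78.7%) in CD3e-/- TAC and 84.3% (76.6 to 90.3%) in anti-CD8 TAC, whose intervals overlap for CD3e-/- TAC and anti-CD8 TAC, and 97.3 and 98.9% in the sham groups. In cells, 45 cells of CD3e-/- TAC missed Ly6c2 alone, against 12 of WT TAC, although WT TAC had more kept cells. Retnla, a resistin-like protein of alternatively activated macrophages, held out 25 cells in each sham group and 6, 1 and 1 in the TAC groups, and its limit passed 74.2 and 77.9% of sham cells and 97.3 to 99.1% of TAC cells.

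**Figure D2:**
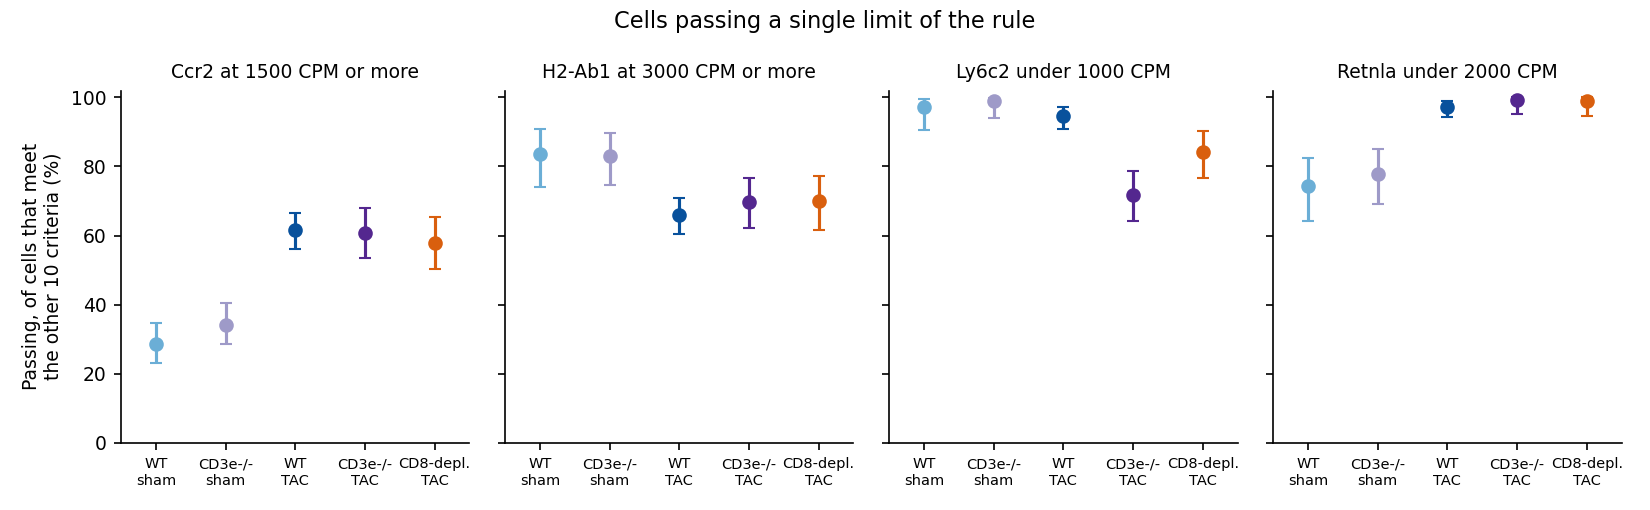
Percentage of cells that pass the limit on Ccr2, H2-Ab1, Ly6c2 or Retnla among cells that meet the other 10 criteria of the rule, per group, with exact 95% intervals of counting error. Ccr2 and Retnla passed more often in the 3 TAC groups, H2-Ab1 more often in the sham groups, and Ly6c2 least often in CD3e-/- TAC (71.9%).

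The edges of the population were populated at Ccr2. The lowest Ccr2 value of a member was 1502 CPM and the highest of a cell held out by Ccr2 alone 1492, and 59 members lay within 20% of the limit. For H2-Ab1 the values were 3016 and 2981 CPM with 24 members within 20%, for Spp1 483 and 513 CPM with 13, for Ly6c2 921 and 1047 CPM with 4, for Csf1r 302 and 293 CPM with 6 and for Lyz2 2016 and 1992 CPM with 12. For the other limits the values inside and outside were 141 and 269 CPM of Gpnmb, 1987 and 2675 CPM of Retnla, and 82.4 and 111 CPM of Cd209a. Members had no read of Mki67 or Cd79a, and the lowest cells outside had 52.4 and 796 CPM. Cells that missed 1 limit alone numbered 631 for Ccr2, 238 for H2-Ab1, 79 for Ly6c2, 58 for Retnla, 58 for Mki67, 52 for Cd209a, 51 for Lyz2, 41 for Spp1, 22 for Csf1r, 7 for Gpnmb and 4 for Cd79a.

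The MHC class II programme was high and changed little between groups. H2-Aa, the alpha chain that pairs with H2-Ab1, had 11529 CPM (11447 to 11611) in WT sham, 11897 (11826 to 11968) in CD3e-/- sham, 10583 (10544 to 10623) in WT TAC, 9952 (9904 to 10001) in CD3e-/- TAC and 10549 (10496 to 10602) in anti-CD8 TAC. H2-Eb1 had 8702, 9609, 8308, 7901 and 8055 CPM, Cd74, the invariant chain that guards the peptide groove, 26802, 28652, 24580, 22893 and 23540, and Ciita 285, 225, 280, 279 and 302. The sham groups were slightly above the TAC groups for the chains and Cd74, and not for Ciita. Ctss, the protease that trims the invariant chain, went the other way, with 2421 and 2111 CPM in sham and 3346, 3865 and 3304 in TAC. Since H2-Ab1 chose the cells, levels of these genes against other cells are set by the rule.

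Within the cells, reads were summed by group and compared as log2 ratios of CPM with 10 CPM added to both sides, over 4201 genes with at least 50 CPM and a read in at least 20% of the cells of some group. A gene was counted when it stood 2-fold or more apart. With 1 sample a group these counts describe libraries of 72 to 216 cells and carry no p-value. The comparisons of WT TAC with WT sham, of CD3e-/- TAC with WT TAC and of anti-CD8 TAC with WT TAC share the WT TAC sample, and the same holds for each other sample used in 2 comparisons.

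After TAC in WT hearts, the cells had higher levels of Ms4a7, Apoe and Ctsd and lower levels of Cd36, Klf2 and Klf4, each 2-fold or more. Past 2-fold, 58 genes were higher, which is 1.38% of those compared, and 48 were lower, or 1.14%. Ms4a7, a membrane protein of macrophages in inflamed tissue, stood at 142 CPM (133 to 151) in WT sham and 493 (484 to 501) in WT TAC (log2 ratio 1.73), with 122 in CD3e-/- sham, 361 in CD3e-/- TAC and 382 in anti-CD8 TAC. Apoe, the lipid carrier that macrophages secrete, had 7213, 7006, 14661, 12933 and 11843 CPM in the order WT sham, CD3e-/- sham, WT TAC, CD3e-/- TAC and anti-CD8 TAC. The lysosomal protease gene Ctsd had 274, 338, 640, 655 and 597 CPM in the same order. For all 3 genes each TAC group was above both sham groups. Hk2, the hexokinase that opens glycolysis, had 14.9 CPM in WT sham and 62.4 in WT TAC (log2 ratio 1.54), and Hmgcs1, an enzyme of cholesterol synthesis, 9.34 and 55.9 (1.77).

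Cd36, a scavenger receptor that takes up fatty acids and oxidised lipoproteins, had 304 CPM (290 to 317) in WT sham and 70.1 (66.9 to 73.4) in WT TAC, a log2 ratio of -1.97. In CD3e-/- mice it had 385 CPM in sham and 44.3 in TAC (log2 ratio -2.86), and 88.3 in anti-CD8 TAC. The share of thinned cells with a Cd36 read was 49.3 and 59.3% in the sham groups and 17.7, 12.4 and 24.8% in the TAC groups, so both measures had the same order, although 1 cell gave 48.7% of the Cd36 reads of CD3e-/- TAC. Lpl, the lipase that frees fatty acids from lipoproteins, and Mgl2 did not reach 2-fold in WT mice (log2 ratios -0.94 and -0.97). Lpl had 1095, 1162, 566, 448 and 498 CPM. Mgl2, a galactose-binding lectin of alternatively activated macrophages, had 826, 833, 417, 277 and 385 CPM.

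**Figure D3:**
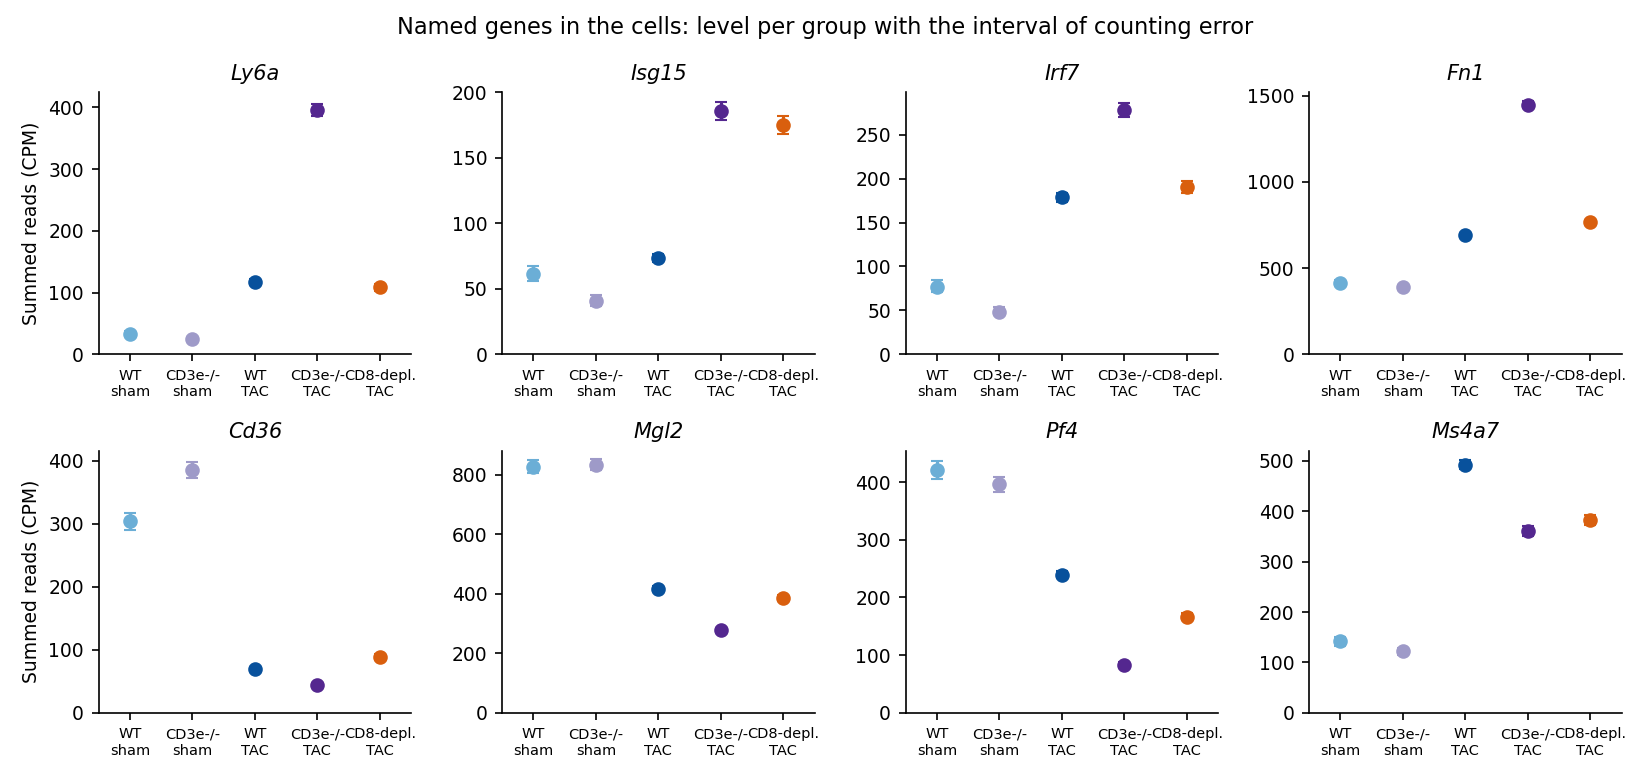
Level of 8 named genes in the cells, in CPM of the reads summed over the cells of each group, on axes that start at 0. Points are groups and bars exact 95% Poisson intervals, which cover counting error alone; Cd36, Mgl2 and Pf4 are lowest in CD3e-/- TAC (44.3, 277 and 82.9 CPM), and Ly6a, Isg15, Irf7 and Fn1 are highest there.

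The transcription factor genes Klf4, Klf2 and Irf1 were lower past 2-fold after TAC in both genotypes. Of 18 lineage transcription factors that passed, which include Klf4 and Klf2, 2 were lower past 2-fold in WT and 3 in CD3e-/- mice, with 6 above 0 in each. Over all genes, 1.14% were lower past 2-fold in WT and 1.79% in CD3e-/- mice, and 2192 and 2358 of 4194 were above 0. Klf4, which is needed for monocyte differentiation, had 873 and 793 CPM in the WT and CD3e-/- sham groups and 367 and 305 in their TAC groups, and 360 in anti-CD8 TAC. Klf2, a relative that restrains activation, had 487 and 414 against 188 and 196 CPM, and 220 in the third TAC group. Irf1, a factor induced by interferon-gamma, had 317 and 210 against 103 and 98.6, and 165. Of 22 genes known to respond to tissue dissociation, 20 were lower in WT TAC than in WT sham (3 past 2-fold, median log2 ratio -0.50) and 20 were lower in CD3e-/- TAC than in CD3e-/- sham (6 past 2-fold, median -0.59), beside a median of 0.02 and 0.05 over all genes compared. Their summed level was 22100 and 21270 CPM in the sham groups and 15956, 14796 and 17058 in the TAC groups. By the median cell, anti-CD8 TAC was at 15276 CPM, above both sham groups at 14872 and 15182. The part of the dissociation genes in the lower Klf2, Klf4 and Irf1 was not tested.

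In CD3e-/- mice the interferon genes stood out after TAC. Past 2-fold, 91 genes were higher than in CD3e-/- sham, or 2.17% of those compared, and 75 were lower, or 1.79%. Of the 17 type I interferon response genes that passed the filter, out of 25 in the list, all 17 were above 0 and 9 past 2-fold, with a median log2 ratio of 1.13. In WT mice 16 of the 17 were above 0 and 2 past 2-fold after TAC, with a median of 0.48. By the median cell the genotypes were closer. The summed list was at 1503 CPM in CD3e-/- sham and 2352 in CD3e-/- TAC, against 1517 and 2104 in the WT groups. In members under 100 CPM of Ly6c2, a limit chosen after seeing the data, the genotypes were closer, with 8 past 2-fold and a median of 0.92 in CD3e-/- mice and 6 past 2-fold and a median of 0.56 in WT, and 15 of 17 above 0 in each. Irf7, the master factor of the response, had 48.6 CPM (44.2 to 53.4) in CD3e-/- sham and 278 (270 to 287) in CD3e-/- TAC, against 77.1 and 179 in the WT groups and 190 in anti-CD8 TAC. Zbp1, a sensor of nucleic acids, had 10.3 and 118 CPM in CD3e-/- mice against 44.9 and 92.6 in WT. For Zbp1, the sham groups lay further apart than the TAC groups.

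The sham groups differed from each other as well. Compared with WT sham, 58 genes were higher in CD3e-/- sham, or 1.38%, and 64 lower, or 1.52%. Zbp1 was among the lower genes, with a log2 ratio of -1.43, whereas over the 17 interferon genes 11 were below 0, 2 of them past 2-fold, with a median of -0.12 beside -0.03 over all genes compared. Ccl12, a ligand of Ccr2, had 29.4 CPM in WT sham and 113 in CD3e-/- sham, and Cxcl2, a chemokine for neutrophils, 1177 and 2662. With 72 and 88 cells, these are the smallest groups: the cell with most reads gave 20.8% of the Zbp1 reads of WT sham and 20.1% of the Cxcl2 reads of CD3e-/- sham.

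Genes that stood 2-fold apart after TAC in both genotypes, which share no sample, were listed without the genes of the rule. Among all 4201 genes compared, those of the rule included, 1.38% in WT and 2.17% in CD3e-/- mice were higher past 2-fold. Lower past 2-fold were 1.14 and 1.79%. Higher in both were 13 genes, 22.4% of the 58 in WT and 14.4% of the 90 in CD3e-/- mice. They were 1600014C10Rik, Apoc2, Cd72, Cfb, Clec4e, Ecm1, Gbp2, H2-Q7, Ifit2, Irf7, Ly6a, Ms4a14 and Ms4a7, which include the complement factor B gene Cfb, with 16.1 and 71.2 CPM in WT and 3.99 and 105 in CD3e-/- mice, and the guanylate-binding protein gene Gbp2, which had no read in WT sham. Lower in both were 16 genes, 34.0% of the 47 in WT and 21.3% of the 75 in CD3e-/- mice: Atf3, Cd36, Hpgd, Hspa1a, Il1rl1, Irf1, Klf2, Klf4, Lilra5, Maff, Nes, Nfkbid, Nlrp3, Serpinf1, Slco2b1 and St3gal6. Among them are the interleukin-33 receptor gene Il1rl1, with 93.1 and 41.2 CPM in WT and 72.8 and 24.5 in CD3e-/- mice, and the inflammasome gene Nlrp3, with 75.6 and 30.2, and 114 and 47.7 CPM. Atf3 and Hspa1a also belong to the dissociation list.

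Between the TAC groups of both genotypes, interferon genes, Plac8 and Fn1 were among those that stood apart. In CD3e-/- TAC against WT TAC, 15 genes were higher, or 0.357%, and 16 lower, or 0.381%. Ly6a (Sca-1), an interferon-responsive surface protein, had 117 CPM (113 to 121) in WT TAC, 396 (386 to 406) in CD3e-/- TAC and 108 (103 to 114) in anti-CD8 TAC, against 33.5 and 24.9 in the sham groups. Before thinning it was read in 34 of 216, 42 of 115 and 14 of 102 cells, and in 5 and 2 sham cells, so the level came from a minority of cells in each group. Isg15, a ubiquitin-like interferon product, had 73.4, 186 and 175 CPM in the 3 TAC groups in that order and 61.3 and 41.0 in sham. Ifi205, a nuclear interferon-inducible protein, had 57.3, 168 and 127 CPM, and 35.7 and 49.8 in sham.

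All 17 interferon genes were above 0 between CD3e-/- TAC and WT TAC, 4 of them past 2-fold, with a median of 0.42 beside 0.01 over all genes. These ratios are of summed reads, and the median cell differed less. Its summed level of the list was 2104 CPM in WT TAC, 2352 in CD3e-/- TAC and 2259 in anti-CD8 TAC. The upper quartile of cells was at 3641 CPM in WT TAC and 5240 in CD3e-/- TAC. The monocyte gene Plac8 had 315 CPM in WT TAC and 727 in CD3e-/- TAC, and Fn1 (fibronectin), a matrix protein that monocyte-derived cells secrete, 691 (681 to 701) and 1449 (1430 to 1468). CD3e-/- TAC also had the most cells held out by the Ly6c2 limit alone (45), and its members had 88.5 CPM of Ly6c2 against 62.5 in WT TAC. Restricted to members under 100 CPM of Ly6c2, which left 189 and 97 cells, all 17 genes remained above 0 and 4 past 2-fold, with a median of 0.59. In these cells Ly6a had 89.1 and 303 CPM, Plac8 108 and 484, and Fn1 606 and 1370.

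Pf4, Slco2b1, St3gal6 and Cd93 were among the genes lower past 2-fold in CD3e-/- TAC than in WT TAC, and of these Pf4 belongs to the resident cardiac macrophage list. Pf4, a chemokine that resident cardiac macrophages carry, had 421 CPM in WT sham, 396 in CD3e-/- sham, 240 (234 to 246) in WT TAC, 82.9 (78.5 to 87.4) in CD3e-/- TAC and 167 in anti-CD8 TAC. Slco2b1, an organic anion transporter, had 185, 137, 84.0, 15.2 and 58.7 CPM, St3gal6, a sialyltransferase, 174, 195, 73.4, 28.3 and 57.8, and Cd93, a lectin-like surface receptor, 232, 148, 199, 75.2 and 187. For each of the 4 genes CD3e-/- TAC was the lowest group. Of the resident cardiac macrophage list, 6 of 12 genes passed the filter, and all 6 were below 0 against WT TAC (1 past 2-fold, median log2 ratio -0.55). All 6 were also below 0 in anti-CD8 TAC against WT TAC (none past 2-fold, median -0.31), and 5 of 6 in CD3e-/- sham against WT sham (1 past 2-fold, median -0.38). Over all genes, 2048, 2083 and 2234 of 4194 were below 0 in these 3 comparisons, with medians of 0.007, 0.002 and -0.028. Lower past 2-fold were 0.381, 0.0714 and 1.52% of all genes. The defining resident genes Lyve1 and Cd163 did not pass the filter; Lyve1 had 58.5 and 80.9 CPM in sham and 4.61, 0 and 0.966 in TAC. The summed level of the list was 2673 and 2034 CPM in sham and 1909, 1253 and 1564 in TAC.

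Glycolysis genes also leaned to CD3e-/- TAC, without any past 2-fold. Of 16 that passed out of 20, 15 were above WT TAC, with a median log2 ratio of 0.49, beside 2146 of 4194 genes above 0 and a median of 0.01 over all genes. Gapdh had 808, 845, 820, 1165 and 872 CPM in the order of the 5 groups, Tpi1 136, 188, 179, 299 and 217, and Eno1 396, 414, 430, 606 and 443, each highest in CD3e-/- TAC. The share of thinned cells with an Eno1 read was 76.1, 80.2, 79.9, 89.4 and 96.0%, highest in anti-CD8 TAC.

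**Figure D4:**
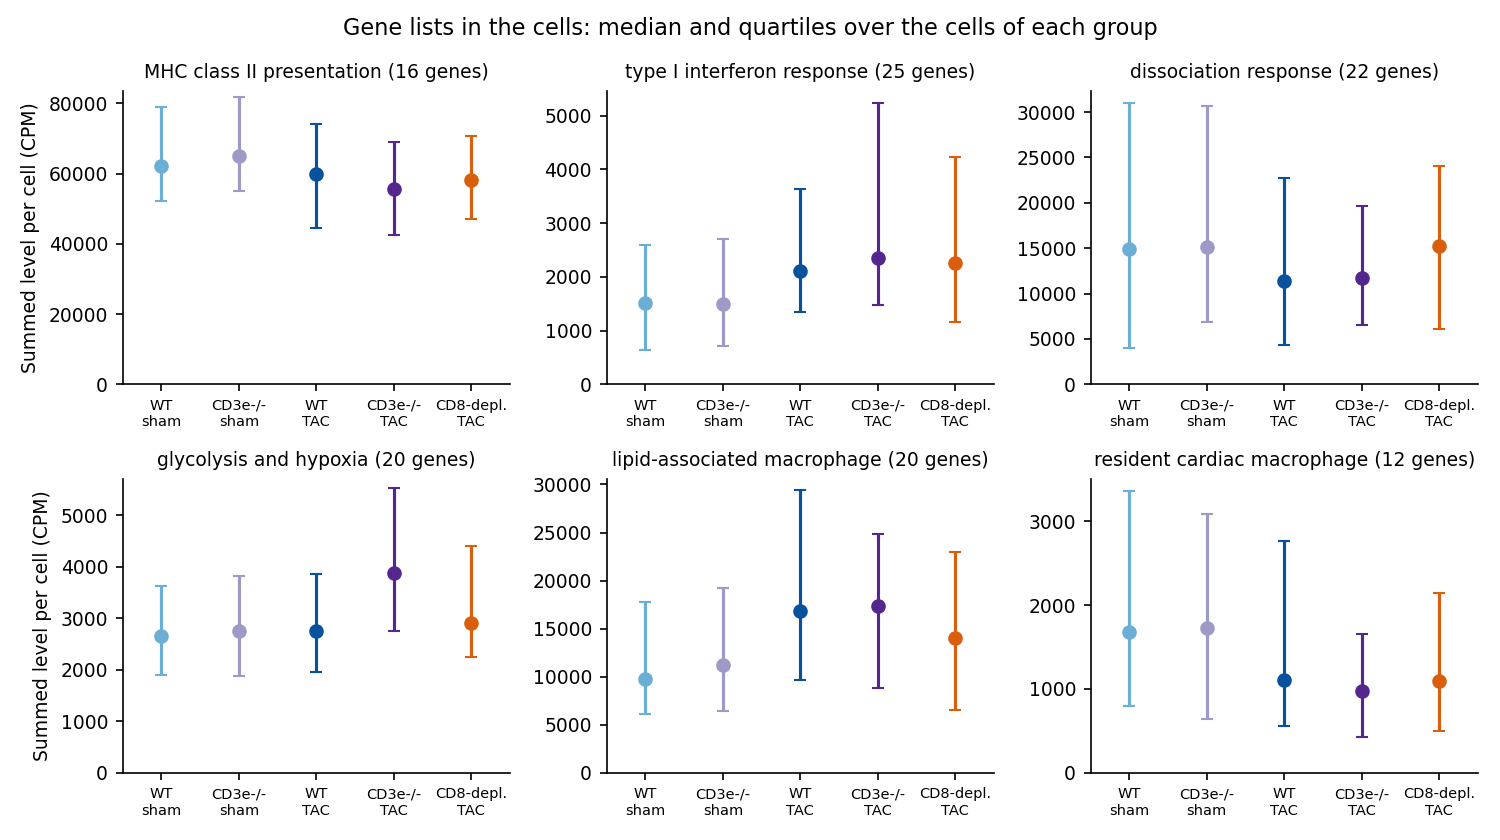
Summed level of 6 gene lists per cell, in CPM, by group; points are the median over the cells and bars the quartiles, which show the spread between cells and not an error. The dissociation list is lower in WT TAC and CD3e-/- TAC (11388 and 11705 CPM) than in sham (14872 and 15182) or anti-CD8 TAC (15276), and glycolysis is highest in CD3e-/- TAC (3867 CPM).

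Few genes stood 2-fold apart between anti-CD8 TAC and WT TAC. Past 2-fold, 5 genes were higher than in WT TAC, or 0.119%, and 3 were lower, or 0.0714%. Isg15 (log2 ratio 1.15) and Ifi205 (1.02) were among the higher, and over the 17 interferon genes 12 were above 0, with a median of 0.31; in members under 100 CPM of Ly6c2, none of the 17 was past 2-fold and the median was 0.18. The receptor gene models Gm9733 and Gm5150 had 34.3 and 28.4 CPM in WT TAC and 88.7 and 75.2 in anti-CD8 TAC, with 67.1 and 68.9 in CD3e-/- TAC. Tsc22d3 (Gilz), a glucocorticoid-induced repressor of inflammatory genes, had 235 CPM (230 to 241) in WT TAC, 122 in CD3e-/- TAC and 87.2 (82.5 to 92.2) in anti-CD8 TAC, with 123 and 194 in sham. Ccl2, the main ligand of Ccr2, had 708, 748, 310, 384 and 564 CPM in the 5 groups.

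Of 20 genes that the study follows in cardiac macrophages, 10 were read in at least 20% of the cells before thinning. They include Csf1r, Lyz2 and Ccr2, which the rule demands of every member, and Ly6c2, which it limits. Outside the rule, 7 of the 20 passed the filter used between groups. Igf1, a growth factor for cardiomyocytes, had 148 CPM in WT sham, 59.6 in CD3e-/- sham, 105 in WT TAC, 56.4 in CD3e-/- TAC and 53.1 in anti-CD8 TAC, and was read in 21, 17, 37, 12 and 16 cells before thinning. Osm (oncostatin M), a cytokine that acts on cardiomyocytes and fibroblasts, had 54.2, 130, 77.3, 112 and 85.1 CPM, and was read in 13.4 to 24.8% of thinned cells. Areg (amphiregulin), an epidermal growth factor receptor ligand, had at most 27.7 CPM, and that value came from 1 cell of CD3e-/- TAC.

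The remaining lists gave smaller or mixed differences. Of 13 interferon-gamma response genes that passed, 12 were above 0 in CD3e-/- TAC against CD3e-/- sham (3 past 2-fold higher, 1 lower, median 0.57), where 2.17% of all genes were higher and 1.79% lower past 2-fold, and 8 of 13 were above 0 in WT (median 0.08). Of 15 lipid-associated macrophage genes, 2 were higher and 1 lower past 2-fold in WT after TAC (median 0.50, beside 1.38% and 1.14% of all genes), and 1 higher and 2 lower in CD3e-/- mice (median 0.33). Of 9 chemokines, 3 were lower past 2-fold in CD3e-/- TAC than in CD3e-/- sham, with a median of -0.83, beside 1.79% lower over all genes and a median of 0.05. Of 9 enzymes of eicosanoid synthesis, 1 was past 2-fold in CD3e-/- mice after TAC, which was Alox5, the enzyme that makes leukotriene A4, with 82.6 and 17.9 CPM. Of 20 paired receptor genes, at most 3 stood past 2-fold in a comparison, which was CD3e-/- TAC against CD3e-/- sham, with 2 higher and 1 lower.

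Cells that met all criteria but 1 show what surrounds the population. Such a contrast is that of the rule, so the values below are descriptions, and a gene was counted when it was 2-fold apart in the sums over all groups and on the same side in each group with 10 or more cells of both kinds. Sums over all groups also mix groups in other proportions, for which the range over groups is given. A gene could pass the filter through either kind of cell. Genes that passed through the neighbours alone were bound to lean lower in the members.

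Against the 41 cells with Spp1 at 500 CPM or more, compared in WT TAC and CD3e-/- TAC, 30 genes were higher in the Ccr2 MHC-II macrophages, or 0.785% of 3824, and 27 lower, or 0.706%. Fcgrt, the receptor that recycles antibodies, had 145 CPM against 28.4 (log2 ratio 2.01, 1.98 to 2.34 over the groups). Mgl2 had 469 against 178 and Egr1 1376 against 496. Fn1 had 813 CPM against 2329 (log2 ratio -1.51, -1.71 to -0.74), Chil3, a chitinase-like protein of monocytes, 64.2 against 223, and Mif, an inflammatory cytokine, 145 against 368. Of 16 glycolysis genes that passed, 1 was lower past 2-fold, with a median log2 ratio of -0.73 beside -0.06 over all genes. The markers of the name did not part these cells, with log2 ratios of 0.55 for Clec4b1, 0.09 for Sirpb1a, -0.10 for Rnd3 and -0.32 for Dpep2, and 36.6% of the Spp1 cells carried 3 or 4 of them.

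Against the 79 cells with Ly6c2 at 1000 CPM or more, compared in the 3 TAC groups, 73 genes were higher in the Ccr2 MHC-II macrophages, or 1.92% of 3793, and 151 lower, or 3.98%, the most of any neighbour. Mgl2 had 469 CPM against 1.88 (log2 ratio 5.33, 4.69 to 5.42), Pf4 226 against 1.88, Cd81, a tetraspanin, 351 against 20.5 and Cd36 129 against 15.6. Ly6a had 159 CPM against 1930 (log2 ratio -3.52, -3.89 to -2.38), Plac8 446 against 3586, and Irf7 178 against 1087. Of 23 type I interferon genes that passed, 21 were lower past 2-fold in the Ccr2 MHC-II macrophages, with a median log2 ratio of -1.82, and so were 5 of 8 classical monocyte genes. Ly6a and Plac8, which were higher in the members of CD3e-/- TAC than in those of WT TAC, were thus also higher in these neighbours.

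Against the 631 cells with Ccr2 under 1500 CPM, compared in all 5 groups, 27 genes were higher in the Ccr2 MHC-II macrophages, or 0.743% of 3632, and 42 lower, or 1.16%. Of the markers of the name, Sirpb1a and Rnd3 were past 2-fold in this contrast and Dpep2 and Clec4b1 were not. Sirpb1a had 121 CPM against 27.3 (log2 ratio 1.82, 1.22 to 2.27), Rnd3 79.8 against 25.8 (1.33, 0.69 to 2.23), Dpep2 171 against 98.7 (0.73, 0.09 to 1.30) and Clec4b1 183 against 108 (0.71, 0.43 to 1.35). Sirpb1c had 303 CPM against 73.4, S100a4, a calcium-binding protein of motile monocytes, 800 against 256, and Emb (embigin), an adhesion protein, 284 against 74.6. Lower in the Ccr2 MHC-II macrophages were Mmp13, a collagenase, with 28.5 CPM against 237, Cd163, the haemoglobin scavenger receptor of resident macrophages, with 20.8 against 156, and Gas6, a ligand for the uptake of dead cells, with 34.1 against 160. Of 8 resident genes that passed, 4 were lower past 2-fold (median log2 ratio -1.26), though Cd163 and Gas6 passed through these neighbours alone. Of these neighbours, 4.35% (2.86 to 6.31%) carried 3 or 4 of the markers of the name.

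**Figure D5:**
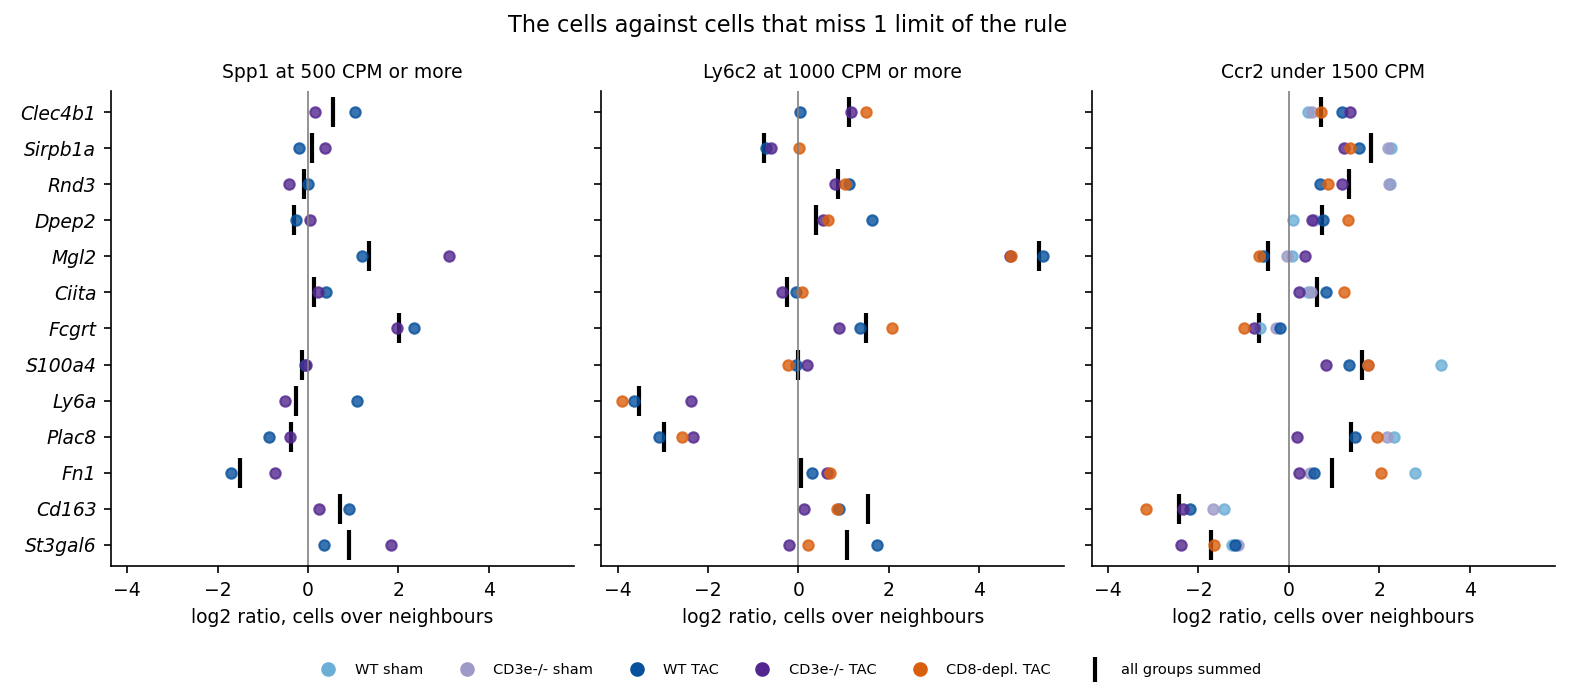
Log2 ratio of 13 genes in the Ccr2 MHC-II macrophages over cells that miss 1 limit, for Spp1, Ly6c2 and Ccr2. Coloured points are groups with 10 or more cells on both sides and black marks the sums over all groups; genes that did not pass the filter are blank. Sirpb1a and Rnd3 lie above 0 in all 5 groups against cells with less Ccr2, and Ly6a and Plac8 lie below 0 in all 3 groups against cells with more Ly6c2.

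Against all 2735 other cells with Csf1r and Lyz2, 8 genes were higher in the Ccr2 MHC-II macrophages, or 0.222% of 3611, and 29 lower, or 0.803%. The higher genes were mostly of antigen presentation, which the rule chose through H2-Ab1: H2-Eb1 had 8364 CPM against 3332, H2-Aa 10685 against 4421, Ciita 278 against 119 and H2-DMb1, which loads peptides, 793 against 367. Of 8 such genes besides H2-Ab1, 5 were higher past 2-fold, with a median log2 ratio of 1.12. Clec4b1 was past 2-fold as well, with 183 CPM against 84.5 (log2 ratio 1.03, 0.18 to 1.68), and was closest to the other cells in CD3e-/- sham, where it had 207 against 181. Lower were Saa3, an acute phase protein, with 7.97 CPM against 400 (-5.76 to -0.13 over the groups), Hp (haptoglobin), with 21.5 against 116, Ifitm6, a monocyte gene, with 42.5 against 152, and Cd163, with 20.8 against 107. Of the monocyte and resident genes that passed, 6 of 7 and 6 of 8 were lower past 2-fold. Some passed through the other cells alone, such as Hp and Cd163, read in 6.41 and 5.90% of members. The limit on Ly6c2 also bears on the monocyte genes. Both counts are thus partly set by the filter and the rule.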

How the data were processed

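Single-cell RNA was measured in heart CD45+ cells of 5 groups pooled in 1 TAS-Seq library. The authors deposited raw counts of reads per cell and gene after error correction and hashtag demultiplexing. cutadapt 2.10, Bowtie2 2.4.2 and GRCm38 are named in the submitters' processing notes, with no role given. The matrix had 5363 columns and 27809 genes. The authors had called 40 columns doublets and 8 had no hashtag, and both were left out, as were cells with under 500 genes or a mitochondrial share above 0.4. No barcode appeared under more than 1 hashtag, no further doublet caller was run, and the group of each hashtag was read from notes deposited with the matrix.

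Counts were used as CPM per cell for the rule and as CPM of summed reads per group (6636770 to 26033741 reads) for levels. Shares have exact Clopper-Pearson intervals, their differences Newcombe intervals and levels exact Poisson intervals, all of 95%. Each group was 1 sample, so no test was run; edgeR 4.0.16 and DESeq2 1.42.0 gave only alternative scaling factors (R 4.3.3). The rest was done with pandas 2.3.3, scipy 1.17.1, numpy 2.4.6 and matplotlib 3.10.9 under Python 3.11.15, and the scripts were tested on simulated data. Genes were named by these rules: genes of the rule and markers of the name; members of fixed lists with the highest level or largest ratio; the 8 highest and 8 lowest ratios per comparison, read in at least 30% of cells of the higher group; the 12 highest and 8 lowest against each kind of neighbouring cell; and genes the study names for macrophages. Examples outside them, such as Cxcl2 and Alox5, were chosen after their values were seen. B cells used for background had Cd79a at 500 CPM or more, Ms4a1 at 100 or more and Csf1r under 100. The members, the lists and the limits were chosen with earlier results of these data known. Near-identical gene copies (the Sirpb1 cluster, Hspa1a and Hspa1b) may share reads. Alternatives were other offsets, filters, scalings, limits, denominators, thinning and leaving out the cell with most reads of a gene. The cardiomyocyte, cytometry and RT-PCR data of the study were not analysed here.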

Additional observations from a re-analysis of the deposited data

Results flagged for a closer look

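Among genes 2-fold apart in one direction after TAC in 1 genotype and at least 0.5 apart on the log2 scale in the other direction in the other genotype, 9 were found. The difference between the genotypes was not tested, since each group was 1 sample. Hmgcs1, Chd3, Cep57, Lonp2 and Poglut3 were also among the largest differences between the sham groups. Their log2 ratios of CD3e-/- sham to WT sham were 1.42, 1.65, 1.44, -1.51 and -1.46. In WT sham, 1 cell gave 70.5% of the Cep57 reads and 1 cell 35.5% of the Hmgcs1 reads. The log2 ratio of TAC to sham was 1.77 in WT and -0.63 in CD3e-/- mice for Hmgcs1, an enzyme of cholesterol synthesis, 1.40 and -0.69 for Tmem273, 1.24 and -0.85 for Chd3, a chromatin remodeller, and 0.83 and -1.44 for Cep57, a centrosomal protein. It was -1.67 and 0.67 for Lonp2, a peroxisomal protease, -1.12 and 0.65 for Poglut3, -0.54 and 1.43 for the adhesion molecule gene Ceacam1, -0.70 and 1.17 for Lrch1, and -0.83 and 1.01 for the phosphatase gene Ptprs.

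The share of the Ccr2 MHC-II macrophages among cells with Csf1r and Lyz2 was 7.18 points higher after TAC in WT mice and changed by -1.29 points in CD3e-/- mice, again without a test of the difference.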

How the results depend on the processing

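With 1 sample a group the spread between mice is unknown, and a few cells can carry the level of a gene, so counts of genes past 2-fold moved with the settings. In the order TAC against sham in WT, TAC against sham in CD3e-/-, CD3e-/- sham against WT sham, CD3e-/- TAC against WT TAC and anti-CD8 TAC against WT TAC, the counts were 106, 166, 122, 31 and 8 as reported. They were 187, 271, 246, 62 and 30 with an offset of 1 CPM, 18, 55, 5, 8 and 1 with 50 CPM, 343, 417, 537, 101 and 70 at 10 CPM with no filter on cells, and 241, 394, 413, 102 and 43 with limits 1.5 times stricter. For the last 3 comparisons they were 212, 55 and 20 from the mean CPM of cells, and 207, 52 and 27 in thinned cells, and for the last 2, 49 and 20 in members under 100 CPM of Ly6c2, an alternative chosen after seeing the data. Without the cell that held most reads of each gene, the share of higher genes was 78.1% instead of 54.7% in WT and 68.1% instead of 54.8% in CD3e-/- mice. Against the Spp1, Ly6c2 and Ccr2 neighbours, counts of 57, 224 and 69 became 9, 116 and 32 with an offset of 50 CPM. The difference in share between WT TAC and WT sham was 9.13 points with limits loosened 1.5 times, and that of CD3e-/- TAC from sham was -1.29 points among cells with Csf1r and Lyz2 and -2.63 without the limits on Retnla, Cd209a, Gpnmb and Mki67. The causes were not tested. Of the other values, 32 of 35 shares and 44 of 50 interferon medians moved by less than the margin set for them, and of 800 log2 ratios of named genes 322 moved by more and 1 reversed, Ceacam1 in CD3e-/- TAC against WT TAC, at -0.013 with stricter limits against 1.18. Among the shares within their margin, some intervals still changed in whether they held 0. With stricter limits, CD3e-/- sham minus WT sham was 1.01 points (-0.988 to 3.10) and CD3e-/- TAC minus WT TAC -2.62 points (-4.62 to -0.479). With loosened limits, CD3e-/- TAC minus CD3e-/- sham was 4.94 points (1.48 to 8.37) and anti-CD8 TAC minus WT TAC -3.25 points (-6.25 to -0.109). Without the limits on Retnla, Cd209a, Gpnmb and Mki67, anti-CD8 TAC minus WT TAC was -3.32 points (-6.15 to -0.343). In that setting the share was 16.9% in CD3e-/- sham, beside 17.0% in WT TAC, 14.3% in CD3e-/- TAC and 13.6% in anti-CD8 TAC. No paired analysis was possible because each group was 1 sample.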
